A study of Homo sapiens with 6 samples.

Results

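The 10 genes described here carry iron into cells, store it, export it or sense it: TFRC, TF, STEAP3 and SLC11A2 (import), FTH1 and FTL (storage), SLC40A1 and CP (export), and IREB2 and ACO1 (sensing). They are 10 of the 36601 genes measured. They were chosen by a measured value, the change of TFRC after transplantation: TFRC, the transferrin receptor gene, had already been seen to be lower in transplanted cones of these data. TFRC in cones is therefore described with no test, also where cones are set against other classes, and the other genes were taken for their place in the pathway.

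Gene expression was measured per cell by droplet-based 3' RNA sequencing of retinal organoid fragments from WA09 CRX-tdTomato, an established human embryonic stem cell line in which a red reporter marks cells that use CRX, a photoreceptor gene. The organoids were 113 to 126 days old when they were broken into fragments. Fragments of each batch went either into the space under the retina of normal dogs (transplanted, n = 3 samples) or back into the dish (cultured, n = 3 samples), and both were taken after 3 days. Each of 3 experiments, called Sets, gave 1 sample of each kind, so samples are compared within a Set. All samples come from 1 cell line with the reporter, the hosts had healthy retinas, and the number of eyes or animals behind a sample is not given in the sources used here.

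Iron circulates bound to transferrin (TF), which cells take up through TFRC. STEAP3 reduces the iron in the endosome and SLC11A2 carries it into the cytosol. Surplus iron is kept in shells of ferritin heavy (FTH1) and light (FTL) chains or leaves through ferroportin (SLC40A1), with ceruloplasmin (CP) oxidising it on the way out. The RNA-binding proteins IREB2 (IRP2) and ACO1 (IRP1) hold to hairpins called iron-responsive elements when iron is low, which stabilises TFRC RNA and blocks translation of ferritin and ferroportin RNA. In the retina photoreceptors need iron for their membranes and metabolism, and Müller glia are a known source of ceruloplasmin.

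Because these hairpins are the sequences that tie TFRC, the ferritins and SLC40A1 to the same control, they were looked for in the transcripts of GENCODE release 29 (GRCh38), on the transcript strand only. The motif was a C, any 5 bases, the loop CAGTGN and 5 bases that pair with the first 5, G:T pairs allowed. It was found in 5 of the 10 genes, all in untranslated regions (UTRs), the fifth being TF in the 3' UTR of a 20602-base transcript, against 291 of 19702 protein-coding genes (1.48%), or 0.858% with a match in a UTR. TFRC held 4 matches in its 3' UTR on the minus strand, at chr3:196050985-196051001, chr3:196050581-196050597, chr3:196050516-196050532 and chr3:196050469-196050485. FTH1 held 1 in its 5' UTR at chr11:61967580-61967596 (minus strand), FTL 1 in its 5' UTR at chr19:48965341-48965357 (plus strand) and SLC40A1 1 in its 5' UTR at chr2:189580667-189580683 (minus strand). The matches of TFRC, FTH1, FTL and SLC40A1 are shown 5' to 3' with their flanks, the 6-base loop in capitals. A match is a description of these letters and not a measured binding site. The motif allows no unpaired base within these 5 pairs and no other loop, so hairpins of other shapes are missed. A gene without a match is thus not shown to lack an element. The hairpins were already known from TFRC, the ferritins and SLC40A1, so the share among the 10 genes is no test of enrichment.
TFRC site 1: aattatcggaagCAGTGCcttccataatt
TFRC site 2: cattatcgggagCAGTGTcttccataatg
TFRC site 3: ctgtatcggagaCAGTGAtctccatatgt
TFRC site 4: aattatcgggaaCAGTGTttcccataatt
FTH1: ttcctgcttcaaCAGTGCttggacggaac
FTL: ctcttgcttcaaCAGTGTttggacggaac
SLC40A1: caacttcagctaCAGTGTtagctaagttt

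After filtering, 43757 of 51749 barcodes remained, 694 to 17899 per sample, from samples of 6850189 to 108222149 UMIs (unique molecular identifiers, 1 per captured RNA molecule), with median depths of 2140 to 4415 UMIs per cell. Any 2 samples shared at most 54 cell barcodes. Cells were sorted by marker UMIs into rods (NRL), cones (PDE6H above NRL), a Müller class (HES5, WIF1 and TTYH1) and an amacrine class (TFAP2A and TFAP2B). The 6979 cells that met several of these rules were left out, and 19231 met none. Levels are counts-per-million (CPM), the UMIs of a gene scaled to the UMIs of its class, and log2 changes are fitted by edgeR's quasi-likelihood test with the Set as a block, ± SE, with p-values adjusted over all genes tested.

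No class was free of the markers of other cells. Summed rod markers were 2259 to 4115 CPM in rods and 165 to 387 CPM in cones, and summed cone markers 2036 to 3674 CPM in cones and 539 to 1245 CPM in rods, each sum including the genes of the rule. Rods also had up to 794 CPM of amacrine and up to 894 CPM of Müller markers. OPN1LW, a cone opsin gene, was at 0 in cones. The Müller class had 25.0 to 96.5 CPM of RLBP1, a Müller glia gene outside the rule, and 72.8 to 1698 CPM of summed dividing-cell markers, so it also held progenitors. Its summed astrocyte markers were 94.7 to 586 CPM, against 7.47 to 130 CPM in rods. Summed markers of mural cells and fibroblasts were 102 to 238 CPM there, against 9.08 to 49.0 CPM in rods. The amacrine class had 721 to 2732 CPM of summed horizontal cell markers against 1392 to 2316 CPM of amacrine markers, so it held both kinds of cell. A filter on cells that may carry host RNA, run as another setting, kept 1632 of 1654, 18 of 25 and 51 of 117 transplanted Müller-class cells. In the cultured samples of Sets 1, 2 and 3 it kept 3584 of 3605, 488 of 496 and 31 of 31. Whether the cells it removed come from the dog was not tested. Fewer than 20 cells were found for transplanted cones of Set 2 (13 cells) and the transplanted amacrine class of Set 1 (19 cells). Those sums were dropped from the fits, so cone changes rest on Sets 1 and 3 and amacrine changes on Sets 2 and 3. Cultured sample 3 stood apart, with the lowest ferritin levels of the cultured samples in every class and the highest TFRC.

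TFRC (ENSG00000072274, GRCh38 chromosome 3, 196027183 to 196082189) was highest in cones, then in rods, with the Müller and amacrine classes lowest. In the cultured samples of Sets 1, 2 and 3 it stood at 97.8, 92.5 and 199 CPM in cones. Rods had 68.8, 71.5 and 131 CPM. The Müller class had 33.7, 33.4 and 75.0 CPM, the last on 11 UMIs, and the amacrine class 37.5, 33.7 and 91.5 CPM. Cones were above rods within each Set, while the Müller and amacrine ranges overlapped.

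Between classes of the cultured samples, edgeR called 0 of the other 9 iron genes in cones against rods, with 0 at an unadjusted p under 0.05 and 0 by DESeq2, where 5.79% of all 17270 genes tested were called. TFRC was 1.92-fold lower in the Müller class than in rods (log2 difference -0.94 ± 0.18, adjusted p = 0.000167 by edgeR). In the amacrine class it was 1.85-fold lower than in rods (-0.88 ± 0.19, adjusted p = 0.000699), a call that ended without Set 2 (-0.77, 0.0835). When cells of several classes were kept, the differences from rods shrank to -0.27 in the Müller class and -0.42 in the amacrine class.

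**Figure D1:**
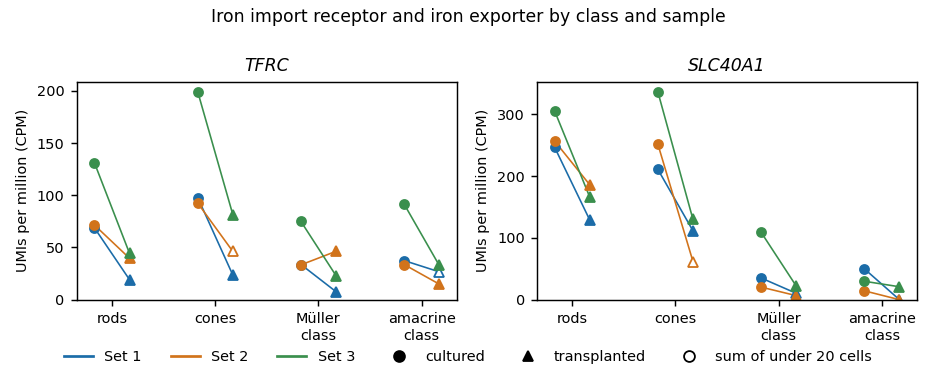
TFRC (left) and SLC40A1 (right) in CPM (linear axes from 0) for each class and sample, circles for cultured and triangles for transplanted, lines joining the samples of a Set, open symbols for sums of under 20 cells. Both genes lie lower in each transplanted sample than in its cultured partner in rods and cones, and SLC40A1 is low in the Müller and amacrine classes.

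Transplanted rods had less TFRC RNA. The level was 19.2, 39.6 and 44.3 CPM in the transplanted samples of Sets 1, 2 and 3, below every cultured sample (68.8 to 131 CPM). Means were 90.4 ± 35.2 CPM in rods of the cultured samples and 34.4 ± 13.4 CPM after transplantation (SD, n = 3). The fitted fall was 2.58-fold (log2 change -1.37 ± 0.24, adjusted p = 0.00417 by edgeR). TFRC was chosen by its fall in cones of these libraries, so tests of its change in other classes are not independent of that choice. TFRC was the 1 gene called among the 9 of the 10 that could be tested in rods. Of all 15860 genes tested there 4.16% were called, 2.58% as lower. The call ended without Set 1 (-1.08, adjusted p = 0.119) and without the Set as a block (-1.33, adjusted p = 1), and without Set 3, which holds the cultured sample that stood apart, the change was -1.41 (adjusted p = 2.61e-07).

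In cones TFRC was lower in each Set as well, at 23.7, 46.3 and 81.6 CPM in the transplanted samples against 97.8, 92.5 and 199 CPM in the cultured ones. This fall is the value by which the genes were chosen, so it is no separate result. The Set 2 value rests on 3 UMIs (exact Poisson interval 9.54 to 135 CPM, counting error only) and was not in the fit, which gave -1.66 ± 0.39.

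The Müller class had 7.68, 46.3 and 23.0 CPM of TFRC after transplantation. Sets 1 and 3 were lower than their cultured partners and Set 2 was higher, the latter on 7 UMIs (18.6 to 95.4 CPM), so the groups overlapped. The change was not called (-1.35 ± 0.40, adjusted p = 0.133), and it was -0.53 without Set 1 and -1.74 without Set 2 (adjusted p = 0.0469). The amacrine class had 26.7, 14.9 and 32.8 CPM of TFRC in the transplanted samples, from 1, 3 and 47 UMIs, each below its cultured partner. That change was not called either (-1.34 ± 0.45, adjusted p = 0.694).

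The TFRC response was tested for a difference between classes. The response in the Müller class differed from that in rods by 0.13 on the log2 scale (95% interval -0.47 to 0.74), and that in the amacrine class by 0.17 (-0.54 to 0.88). Both intervals include 0. Of the iron genes, edgeR called 0 of 9 for a difference in response between cones and rods and 0 of 10 each for the Müller and amacrine classes, where 0%, 0% and 0.0116% of the 17270 genes were called. In each of these tests 0 had an unadjusted p under 0.05 and 0 were called by DESeq2.

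In rods summed markers of dividing cells were lower after transplantation in each Set. They went from 562, 84.4 and 147 CPM in cultured to 87.7, 16.7 and 43.6 CPM in transplanted samples of Sets 1, 2 and 3. In the Müller class they fell in Sets 1 and 2 and rose in Set 3. TFRC there fell in Sets 1 and 3 and rose in Set 2. A link between the markers and TFRC was not tested. Without the cells that had a UMI of MKI67 or TOP2A, the TFRC change was -1.42 in rods and -2.09 in the Müller class (adjusted p = 0.000278). TFRC is also high in red cell precursors. Summed erythroid markers were at most 5.53 CPM in rods, 17.2 CPM in cones and 221 CPM in cells of no class. Their part in the TFRC levels was not tested.

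The rest of the import genes were low. TF (ENSG00000091513, chromosome 3, 133745956 to 133796640) was at 8.65, 3.99 and 40.9 CPM in the cultured Müller class of Sets 1, 2 and 3, the last on 6 UMIs. Cultured rods had 2.96, 0.927 and 3.32 CPM of TF. In the Müller class TF was 4.31-fold higher than in rods (2.11 ± 0.51, adjusted p = 0.00268), which fell to 0.54 (adjusted p = 0.102) when cells of several classes were kept. Against cones the TF difference of 1.37 ± 0.54 missed the threshold (adjusted p = 0.0547), and it passed in 9 of 15 other settings.

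TF rose in the transplanted Müller class. The level was 25.8, 59.5 and 37.2 CPM after transplantation, from 309, 9 and 42 UMIs. It was higher than its cultured partner in Sets 1 and 2 and close to it in Set 3, and the groups overlapped. The fitted rise was 3.71-fold (1.89 ± 0.43, adjusted p = 0.0205 by edgeR), 1 of 2 calls among 9 iron genes tested in this class, where 0.484% of 13835 genes were called. The call ended in 8 of 14 other settings. Among them were DESeq2 (1.91, adjusted p = 0.838), leaving out Set 1 (2.10, 0.960) or Set 2 (1.33, 0.396), and a filter on cells that may carry host RNA (1.36, 0.135). In rods TF was not called (0.82 ± 0.55, adjusted p = 0.473).

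Markers of other tissues known to express TF were lower in the transplanted Müller class, except choroid plexus markers in Set 3; their part in the TF rise was not tested. Summed pigment epithelium markers in the Müller class were 802, 671 and 68.1 CPM in the cultured samples, against 476, 165 and 54.9 CPM in those transplanted. Summed choroid plexus markers were 650, 513 and 6.81 CPM in the cultured samples, against 323, 6.62 and 7.08 CPM in those transplanted.

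STEAP3, the endosomal iron reductase, was counted too rarely to follow. It had at most 12.5 CPM in any class, on 4 UMIs, and could not be tested between transplanted and cultured samples in any of the 4 classes. In cultured rods it had 10, 101 and 0 UMIs, against 1, 2 and 2 UMIs in transplanted rods. The 0 in cultured rods of Set 3 allows up to 1.66 CPM. SLC11A2, the endosomal iron transporter, stood at 10.3, 17.5 and 13.8 CPM in cultured rods and 7.12, 22.0 and 12.4 CPM in the transplanted ones. Its mean in the Müller class was 12.9 ± 1.11 CPM in the cultured samples, against 12.9 ± 0.661 CPM in those transplanted (SD, n = 3). The cultured Set 3 and transplanted Set 2 values there rest on 2 UMIs each (exact Poisson intervals 1.65 to 49.2 and 1.60 to 47.8 CPM). The SDs therefore understate the error. SLC11A2 was not called in any class, the widest change being -0.89 ± 0.50 in cones (adjusted p = 0.576).

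Ferritin RNA split by Set, with no change called. FTH1 (ENSG00000167996, chromosome 11, 61959718 to 61967660), the chain that oxidises iron, was at 3973, 3538 and 1163 CPM in cultured rods and 2524, 1176 and 1519 CPM in the transplanted ones of Sets 1, 2 and 3. It was lower after transplantation in Sets 1 and 2 and higher in Set 3, and the groups overlapped. FTL (ENSG00000087086, chromosome 19, 48965301 to 48966878), the chain that helps form the iron core, had the same split in rods, at 4134, 3143 and 1182 CPM in the cultured samples, against 3464, 1803 and 1849 CPM in those transplanted.

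The same split by Set held in the other classes. In the Müller class FTH1 went from 4741 to 2937 CPM in Set 1 and from 6906 to 2369 CPM in Set 2, and from 954 to 3620 CPM in Set 3. In cones FTH1 went from 3913 to 2452, from 4185 to 987 and from 1069 to 1835 CPM, and FTL from 3429 to 3380, from 2794 to 1296 and from 777 to 1972 CPM. The classes of a sample share its library, so they are not separate observations.

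FTH1 changed by -0.56 ± 0.46 in rods (adjusted p = 0.565), 0.06 ± 0.48 in cones and -0.05 ± 0.77 in the Müller class. Without Set 3 the FTH1 change in rods was -1.14 (adjusted p = 0.0138). FTL changed by -0.08 ± 0.44 in rods and 0.16 ± 0.74 in the Müller class, and turned to 0.28 in rods without Set 2 and to -0.91 in the Müller class without Set 3. Both ferritins have many processed pseudogenes with near-identical sequence, none of which has a row of its own in these matrices, so how the authors' counting treated such reads limits the levels.

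**Figure D2:**
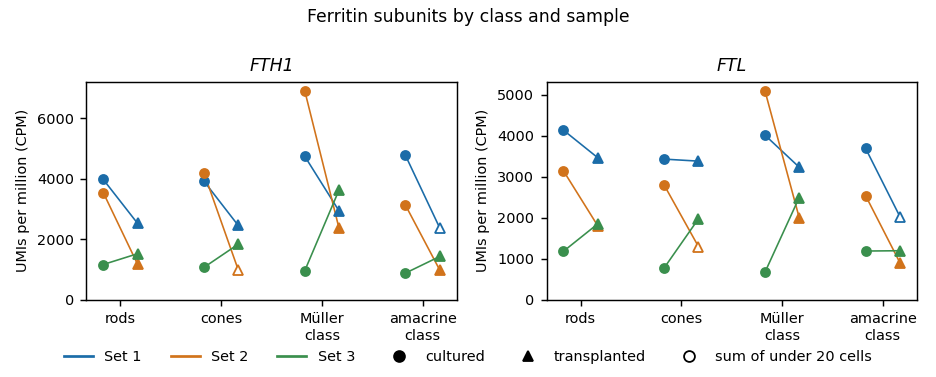
FTH1 (left) and FTL (right) in CPM (linear axes from 0) for each class and sample, circles for cultured and triangles for transplanted, lines joining the samples of a Set, open symbols for sums of under 20 cells. In each class the Set 1 and Set 2 lines go down for FTH1 and the Set 3 line goes up, from the lowest cultured value.

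No difference in ferritin RNA from rods was called in the other classes. In cultured samples FTH1 differed from rods by 0.14 ± 0.21 in cones, 0.39 ± 0.21 in the Müller class and -0.20 ± 0.21 in the amacrine class, and FTL by -0.23 ± 0.26, 0.08 ± 0.26 and -0.23 ± 0.26. The FTH1 difference in the Müller class passed without Set 3 (0.68, adjusted p = 0.0124) and was -0.04 without Set 2.

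SLC40A1 (ENSG00000138449, chromosome 2, 189560579 to 189583758), which encodes ferroportin, the known cellular iron exporter, was higher in the photoreceptors of these fragments than in the other classes. Cultured rods had 246, 257 and 305 CPM and cultured cones 211, 251 and 336 CPM. The Müller class had 35.1, 20.4 and 109 CPM, the last on 16 UMIs, and the amacrine class 49.9, 14.4 and 29.8 CPM. Every cultured rod and cone value lay above every cultured value of the other 2 classes.

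Rods and cones did not differ beyond the error in SLC40A1 (0.08 ± 0.27, 95% interval -0.50 to 0.66). SLC40A1 was 7.29-fold lower in the Müller class than in rods (-2.87 ± 0.33, adjusted p = 7.83e-06), 1 of 4 calls among the 10 genes where 27.7% of all genes were called. Against cones it was 7.71-fold lower (-2.95 ± 0.33, adjusted p = 3.93e-06), 1 of 3 calls among the 9 genes without TFRC, where 33.4% were called. The amacrine class had 11.6-fold less SLC40A1 than rods (-3.54 ± 0.37, adjusted p = 1.76e-06), 1 of 3 calls where 25.9% were called. The Müller differences depended on leaving out cells of several classes. With those cells kept they were -0.43 against rods (adjusted p = 0.229) and -0.44 against cones (adjusted p = 0.147), and the amacrine difference was -1.12 (adjusted p = 0.00209).

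SLC40A1 was lower in the transplanted sample of every Set in rods, cones and the Müller class. In rods it had 129, 186 and 166 CPM after transplantation, below every cultured rod sample, with means of 269 ± 31.4 CPM in cultured rods and 160 ± 28.9 CPM in the transplanted ones (SD, n = 3). That change was not called (-0.69 ± 0.25, adjusted p = 0.137). Without Set 3 it was -0.72 with adjusted p = 0.0280. Cones had 111, 61.7 and 130 CPM after transplantation, the second on 4 UMIs, also below every cultured cone sample. Their change was -1.13 ± 0.41 and not called (adjusted p = 0.244). It was 1 of 7 iron genes tested in cones without TFRC, of which edgeR called 0, with 1 at an unadjusted p under 0.05 and 0 by DESeq2, where 0.515% of 13781 genes were called.

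In the Müller class SLC40A1 fell, to 10.4, 6.62 and 22.1 CPM in the transplanted samples of Sets 1, 2 and 3, from 124, 1 and 25 UMIs. Each was below its cultured partner, while the groups overlapped by the Set 3 value. The fitted fall was 3.30-fold (-1.72 ± 0.39, adjusted p = 0.0145 by edgeR), the second of the 2 calls in this class. The call ended in 6 of 14 other settings, including DESeq2 (-1.76, adjusted p = 0.432), leaving out Set 1 (-1.94, adjusted p = 1) and keeping cells of several classes (-0.73, 0.249). Beside it, summed dividing-cell markers of the Müller class were 1698, 1093 and 409 CPM in the cultured samples, against 447, 72.8 and 587 CPM in those transplanted. Without cells that had a UMI of MKI67 or TOP2A the SLC40A1 change was -1.56 (adjusted p = 0.0191).

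In the amacrine class no UMI of SLC40A1 was counted in the transplanted samples of Sets 1 and 2, which allows up to 80.1 and 14.9 CPM, and Set 3 had 20.9 CPM. Its change was not called (-0.85 ± 0.64, adjusted p = 0.922). Of the 7 iron genes tested there edgeR called 0, with 1 at an unadjusted p under 0.05 and 0 by DESeq2, where 0% of 8871 genes were called.

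The SLC40A1 response differed from that of rods by -0.49 in cones (95% interval -1.43 to 0.46) and by -0.45 in the Müller class (-1.51 to 0.61), both uncalled.

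CP (ENSG00000047457, chromosome 3, 149162410 to 149222055), the multicopper ferroxidase, marked the Müller class. It had 185, 178 and 191 CPM in the cultured Müller class of Sets 1, 2 and 3, a mean of 185 ± 6.18 CPM (SD, n = 3). The Set 3 value rests on 28 UMIs (exact Poisson interval 127 to 276 CPM), so the SD understates the error. Cultured rods had 64.1, 14.2 and 20.5 CPM and cultured cones 44.5, 9.65 and 11.8 CPM of CP. Set 1 was the highest in both photoreceptor classes, and the summed Müller markers of those rods, 894, 279 and 437 CPM, were also highest in Set 1; their part in the CP level of rods was not tested.

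CP was 7.16-fold higher in the Müller class than in rods (2.84 ± 0.52, adjusted p = 0.00178) and 9.43-fold higher than in cones (3.24 ± 0.56, adjusted p = 0.000965). Without Set 2 the calls ended (2.06, adjusted p = 0.125 and 2.49, 0.0561). Keeping cells of several classes brought the differences to 0.75 and 0.91, still called.

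Transplanted Müller-class sums, which may hold host cells, had more CP RNA in each Set, by an amount the test did not call. CP stood at 453, 410 and 350 CPM in the transplanted samples, each above the 191 CPM of the highest cultured sample, and the mean was 404 ± 51.4 CPM (SD, n = 3). The ratio to the cultured partner was 2.44, 2.30 and 1.84 in Sets 1, 2 and 3. The fitted change was 1.28 ± 0.48 (95% interval 0.33 to 2.23) with adjusted p = 0.371. It lay between 0.90 and 1.45 in the 14 other settings and was called in 0 of them. In cones CP was also higher in 3 of 3 Sets, at 69.6, 15.4 and 21.8 CPM, and not called (0.70 ± 0.42, adjusted p = 0.615). Rods had 69.3, 20.3 and 14.9 CPM, a change of 0.09 ± 0.23. In the amacrine class CP went from 134, 27.6 and 13.9 CPM to 0, 0 and 11.2 CPM, where the 0 values allow up to 80.1 and 14.9 CPM, and was not called (-1.10 ± 0.72, adjusted p = 0.922).

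**Figure D3:**
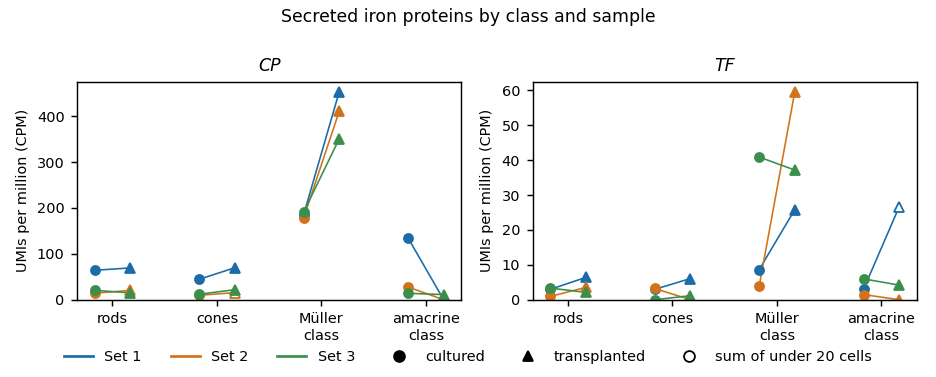
CP (left) and TF (right) in CPM (linear axes from 0) for each class and sample, circles for cultured and triangles for transplanted, lines joining the samples of a Set, open symbols for sums of under 20 cells. The 3 cultured Müller-class CP values lie within 178 to 191 CPM and the 3 transplanted ones within 350 to 453 CPM, while TF in that class rests on 6 to 309 UMIs per sample.

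No change of either sensor was called after transplantation. IREB2 (ENSG00000136381, chromosome 15, 78437431 to 78501456), whose protein is degraded when iron is plentiful, had 49.2, 65.8 and 66.9 CPM in cultured rods and 57.7, 66.1 and 69.4 CPM in transplanted rods. Its change was 0.17 ± 0.20 in rods (95% interval -0.26 to 0.59), and it was called in no class. Between classes IREB2 was 1.40-fold lower in the Müller class than in cones (-0.49 ± 0.18, adjusted p = 0.0413), a call that held in 5 of 15 other settings.

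ACO1 (ENSG00000122729, chromosome 9, 32384603 to 32454769), an iron-sulfur enzyme that binds RNA once its cluster is lost, had 30.3, 21.0 and 23.2 CPM in cultured rods and 17.4, 27.3 and 20.3 CPM in the transplanted ones (-0.18 ± 0.26, adjusted p = 0.769). In the Müller class ACO1 was lower in 3 of 3 Sets, from 32.7 to 19.9, from 28.8 to 13.2 and from 40.9 to 29.2 CPM, and was not called (-0.55 ± 0.38, adjusted p = 0.950). These Müller-class values rest on 2 UMIs in transplanted Set 2 and on 6 UMIs in cultured Set 3. In the cultured amacrine class ACO1 was 2.09-fold lower than in rods (-1.06 ± 0.28, adjusted p = 0.00453), with 21.8, 9.76 and 11.9 CPM. That call ended without Set 2 (-0.88, adjusted p = 0.253).

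**Figure D4:**
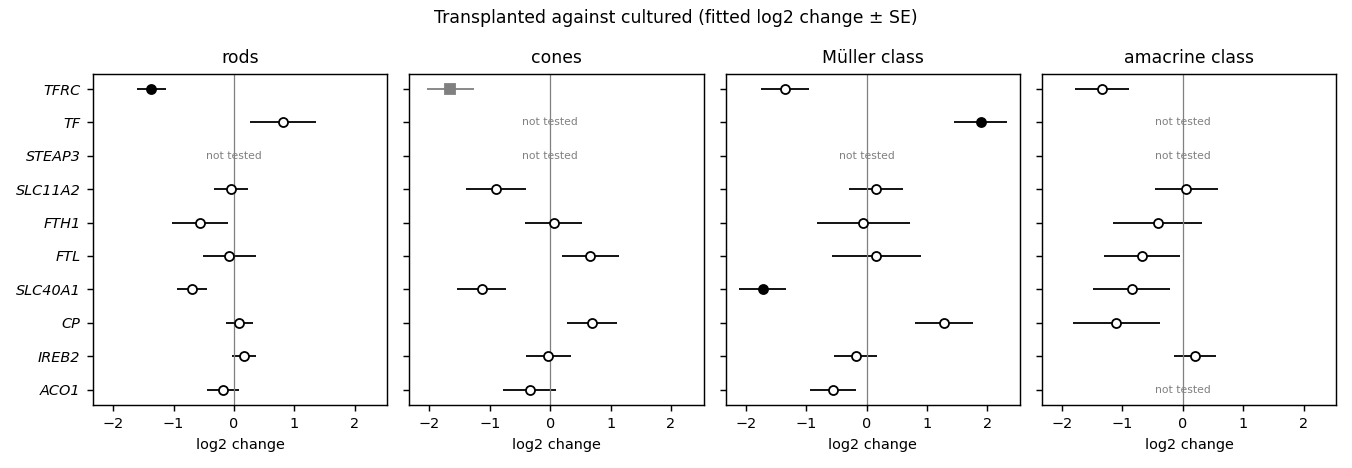
Fitted log2 change of transplanted against cultured samples, ± SE, for the 10 genes (rows) in 4 classes (panels), filled points past an adjusted p of 0.05 and open points not. The grey square is TFRC in cones, shown with no test; TFRC in rods and TF and SLC40A1 in the Müller class are filled.

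Over the iron genes tested, the median log2 change after transplantation was -0.08 in rods (9 genes), -0.03 in cones (7 genes without TFRC), -0.05 in the Müller class (9 genes) and -0.67 in the amacrine class (7 genes). The medians over all genes tested there were -0.04, -0.0083, 0.0023 and -0.0096. The iron genes thus had no shared direction in rods, cones or the Müller class: 3 were above and 6 below 0 in rods, 3 and 4 in cones, and 4 and 5 in the Müller class. In the amacrine class 2 were above and 5 below 0.

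**Figure D5:**
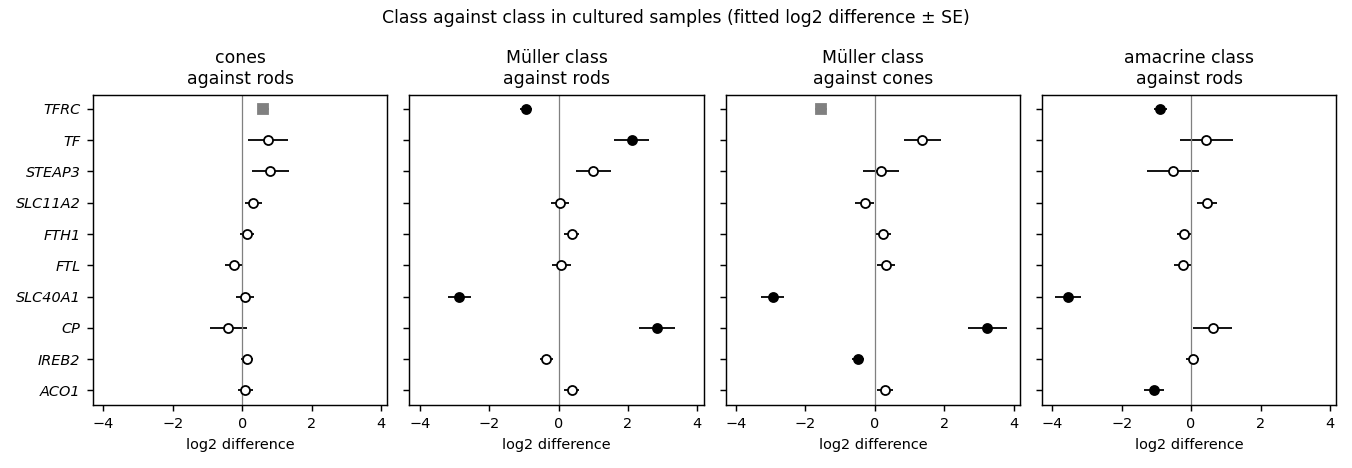
Fitted log2 difference between classes of the cultured samples, ± SE, for the 10 genes (rows) in 4 comparisons (panels), filled points past an adjusted p of 0.05 and open points not. The grey squares are TFRC where cones are compared, shown with no test; TFRC is filled in the other 2 panels, SLC40A1 in the 3 panels with the Müller or amacrine class, and CP in both Müller panels; TF, IREB2 and ACO1 are filled in 1 panel each.

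Of 80 other genes of iron handling, haem, iron-sulfur clusters and ferroptosis, 66 were tested in rods, where 0 rose and 4 fell after transplantation, or 6.06% against 4.16% of all genes (2.58% lower). Their median log2 change was -0.05, against -0.04 over all genes. HMOX1, which breaks haem down and frees its iron, fell the most, from 18.0, 7.42 and 3.87 CPM to 1.96, 0 and 0.404 CPM in Sets 1, 2 and 3. The 0 allows up to 2.64 CPM, and the fitted change was -3.35 ± 0.49 (adjusted p = 0.00147). SLC7A11, the cystine importer that guards against lipid peroxidation, fell from 14.2, 29.8 and 22.1 CPM to 2.46, 7.05 and 6.66 CPM (-1.96 ± 0.30, adjusted p = 0.00210). In transplanted rods 3 UMIs equal 0.737, 2.64 and 0.303 CPM in Sets 1, 2 and 3. The transplanted HMOX1 levels, and those of SLC7A11 in Sets 1 and 2, thus rest on few UMIs.

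The other 2 were PTGS2, a prostaglandin synthase (-1.66 ± 0.38, adjusted p = 0.0200), and BOLA3, which acts in mitochondrial iron-sulfur cluster transfer (-0.88 ± 0.22, adjusted p = 0.0303). Without Set 1 the calls of HMOX1 (-3.48, adjusted p = 0.0605), PTGS2 (-1.65, 0.227) and BOLA3 (-0.74, 0.378) ended, and keeping cells of several classes moved HMOX1 to -1.70. In cones, the Müller class and the amacrine class edgeR called 0 of 60, 63 and 43 of these genes, with an unadjusted p under 0.05 for 9, 2 and 2, and 0 were called by DESeq2 in each.

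Between classes of the cultured samples, 19 of 68 of these genes differed between the Müller class and rods, 9 higher and 10 lower (median log2 difference 0.07, against -0.06 over all genes). That share, 27.9%, is near the 27.7% of all genes. HEPH, a membrane ferroxidase related to ceruloplasmin, was higher in the Müller class, at 13.4, 40.7 and 40.9 CPM against 5.91, 7.37 and 8.85 CPM in rods (2.02 ± 0.27, adjusted p = 1.19e-06). CYBRD1, a ferric reductase of the plasma membrane, was higher there too (2.43 ± 0.36, adjusted p = 6.03e-06), and so was LRP1, an endocytic receptor that also takes up haem bound to hemopexin (1.73 ± 0.25, adjusted p = 7.43e-06). By edgeR the amacrine class was also above rods in HEPH (2.69 ± 0.28, adjusted p = 9.58e-09) and LRP1 (1.79 ± 0.26, adjusted p = 5.23e-06). Of the 68 genes, 5 were called higher and 11 lower in that class than in rods (23.5%, against 25.9% of all genes). With cells of several classes kept, the HEPH difference between the Müller class and rods was 0.54 (adjusted p = 0.0766). In cones against rods 4 of 68 differed (5.88%, against 5.79% of all genes), 3 higher and 1 lower, the latter GCLM, a subunit of the enzyme that starts glutathione synthesis (-1.27 ± 0.19, adjusted p = 2.60e-05).

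The genes whose log2 CPM followed TFRC most closely over the 22 class sums of at least 20 cells, among 6324 genes of at least 30 CPM on average, were CLTC (Pearson r = 0.909), DNAJC5 (0.907), ATP6V1E1 (0.887), PRKAR2A (0.880) and MAP4K3-DT (0.874). CLTC encodes the clathrin heavy chain. For FTH1 they were VKORC1 (0.935), GAPDH (0.934), PFN1 (0.923), PRELID1 (0.919) and NAXE (0.919). FTL had r = 0.916 with FTH1, SLC40A1 0.661 with TFRC, and CP 0.807 with TF, while COL18A1 came closest to TF (0.884). Sums of 1 sample share its library and depth, so these values are descriptions.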

How the data were processed

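The authors deposited 1 matrix per sample of raw UMI counts per gene and barcode, not normalized. They were made with Cell Ranger 6.0.2 (Set 1) and 7.1.0 (Sets 2 and 3) per the file headers, and per the submitters' processing notes on GRCh38 (hg38). Whether intronic reads were counted is not given in the sources used here; both samples of a Set share a version. The members and lists were chosen with earlier results of these data known.

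Barcodes needed 1000 UMIs, 500 genes and a mitochondrial share of up to 20%. Class rules were NRL of 3 UMIs or more (rods), PDE6H of 3 or more and above NRL (cones), HES5, WIF1 and TTYH1 summing to 3 or more (Müller class), and TFAP2A and TFAP2B summing to 2 or more (amacrine class). No doublet caller was run; cells meeting several rules were dropped instead, and the alternatives without cells over 3 times the class median of UMIs bear on doublets too. Counts were summed per sample and class (at least 20 cells) and tested with edgeR 4.0.16 (filterByExpr, TMM, robust fit, R 4.3.3), with Benjamini-Hochberg adjustment at 0.05 and SE as the log2 change over the root of F. Transplanted against cultured used the Set as a block. Classes were compared in 1 model of sample, class and class by treatment over 22 sums, 3 samples per group at most. DESeq2 1.42.0 was an alternative. The test code was also run on simulated counts with known changes. Those counts had the same spread for all genes and no differences between Sets. They therefore do not show how the tests behave under the Set differences of these data.

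The Sets pair the samples because, per the series' design text, both arms came from the same organoid batch. Deviations of same-Set samples from their group means correlated at 0.632 to 0.950 in rods and at 0.123 to 0.805 in the other classes. GENCODE release 29 matched 34616 of 36601 gene identifiers. Named genes are the 10 members, up to 4 called genes with the smallest p of each further list and class, of which those with the smallest p are printed, and the 5 genes most like TFRC, FTH1 and TF. Intervals and limits from 0 counts (3 UMIs) cover counting error only.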

Additional observations from a re-analysis of the deposited data

How the results depend on the processing

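Of 13 called results on the 10 iron genes, 0 reversed in any setting run, and 153 of the 193 values under other settings kept their call. Of 27 uncalled results, 23 of 383 values passed the threshold and 22 reversed. The 27 are a chosen part of the uncalled results on these genes.

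Without the Set or sample as a block, the number of iron genes called went from 1 to 0 in rods, 2 to 0 in the Müller class, 4 to 0 and 3 to 1 in the Müller class against rods and cones, and 3 to 1 in the amacrine class against rods. In these class against class comparisons the calls over all genes went from 4777 to 213, 5765 to 578 and 4469 to 468. Over all genes the unblocked test called 0 in each of the 4 transplanted against cultured comparisons, with 411, 195, 129 and 101 at an unadjusted p under 0.05, against 660, 71, 67 and 0 called with the block and 461, 16, 8 and 0 with DESeq2. FTL in the Müller class turned to -0.27 without the block. The cause was not tested.

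With cells of several classes kept, the iron genes called were 2 in transplanted rods, 1 in the Müller class, 2 in the amacrine class, and 2 and 1 in the Müller class against rods and cones. Over all genes the calls went from 660 to 801, 67 to 572, 0 to 289, 4777 to 2456 and 5765 to 5076 in these comparisons. FTL (0.20) and IREB2 (-0.0050) in rods reversed, and so did the differences from the rod response of TFRC in the Müller class (-0.078) and of SLC40A1 in cones (0.043) and the Müller class (0.021). Transplanted Müller-class calls were 0 with DESeq2 or a marker minimum 1 UMI lower and 1 without cells of very high UMIs. Over all genes the other settings called 0 to 572 in that comparison, 8 of them with DESeq2. With a marker minimum 2 UMIs higher the iron genes called were 5 in the Müller class against cones and 5 in the amacrine class against rods. Over all genes 33.4% and 25.9% were called there in the main fit. The other settings gave 578 to 5943 and 468 to 4886 genes. Müller-class FTH1 turned to 0.88 with the stricter cell filter and 0.75 with the host filter, and FTL to -0.18 at the lower marker minimum. The TFRC response of the Müller class against rods was -0.069 with the stricter filter, -0.063 at the higher minimum and -0.32 without dividing cells. The causes were not tested.

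Leaving out 1 Set at a time gave 0 to 3 iron genes called in rods, 0 to 2 in the Müller class, 3 to 5 and 2 to 3 in the Müller class against rods and cones, and 1 to 4 in the amacrine class against rods. Over all genes these fits called 158 to 1421, 1 to 163, 1503 to 4804, 2729 to 5128 and 1656 to 4886. Changes that reversed ranged from -0.070 to 0.21 (CP in rods), -0.55 to 0.28 (FTL in rods), -0.44 to 0.24 (ACO1 in rods), -1.20 to 0.91 (FTH1) and -0.91 to 1.08 (FTL) in the Müller class. FTH1 of the Müller class against rods ranged from -0.043 to 0.68. The response differences from rods ranged from -0.0074 to 0.25 (TFRC in the Müller class) and -0.062 to 0.98 (FTH1 in the Müller class).

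Cones without Set 1 or 3 and the amacrine class without Set 2 or 3 could not be fitted, since 1 Set remained, and the higher marker minimum left under 2 Sets with enough cells in both groups in the Müller and amacrine classes. The amacrine class could not be fitted without horizontal cell markers. Few UMIs limit TF, STEAP3 and every transplanted Set 2 value outside rods. They also limit the cultured Müller class of Set 3 (31 cells) and the transplanted amacrine class of Set 1 (19 cells).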
